A study of Mus musculus with 6 samples.

Results

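The genes described are Notch1, Notch2, Notch3, Notch4, Dll1, Dll4, Jag1, Jag2, Hey1 and Hes1, which are the 4 mammalian Notch receptors, 4 of their ligands and 2 of their target genes. They were chosen by gene symbol and make up 10 of the 33965 genes in the deposited expression table, and each symbol matched 1 gene. Bulk RNA-sequencing was performed on 6 MC38 tumors, 3 of PBS-treated and 3 of GB2-treated mice. MC38 cells, a line from a mouse colon carcinoma, were inoculated under the skin of C57BL/6 mice, a strain with an intact immune system that is shared by both groups. GB2 is a prodrug that joins MSA-2, which activates the innate immune sensor STING, to ART, which the study uses as an inhibitor of the myeloid receptor TREM2. PBS is the vehicle control. The animals of the study were female. The study states a GB2 dose for its MC38 model and the age of its mice when bought, but neither is tied to the sequenced tumors, whose time of sampling is not given in the sources used here. The labels number the tumors 1 to 3 in each group and do not say that each came from a different mouse, so p values measure the spread between these samples. Each value is an average over all cells of the tumor, and therefore more cells of a type and more RNA per cell cannot be told apart.

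Notch signaling works between touching cells. A ligand of the Delta-like or Jagged family on a cell binds a Notch receptor on its neighbor, the receptor is cut by ADAM proteases and then by gamma-secretase, and the freed intracellular part enters the nucleus, where it joins the DNA-binding protein RBPJ and switches on genes of the Hes and Hey families. These targets encode transcriptional repressors. In tumors the pathway is best known from blood vessels, where Dll4 on sprouting tip cells and Notch1 and Notch4 on endothelial cells control branching, and where Jag1 on the endothelium and Notch3 on mural cells act in vessel maturation. It also acts in fibroblasts, in macrophages and in the intestinal epithelium.

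The GB2 tumors held more Dll1, Notch1 and Dll4 transcript than the PBS tumors, and the groups overlapped for the downstream targets Hes1 and Hey1. Dll1 was 3.70-fold higher, Notch1 2.14-fold and Dll4 1.72-fold by the edgeR fit, and in all of these genes every GB2 tumor was above every PBS tumor. Notch3 and Notch4 were also higher in every GB2 tumor, by smaller amounts relative to their spread. The groups overlapped for Notch2, Jag1 and Jag2 as well, and Hes1 was the single gene with a lower fitted level in GB2 tumors. In the edgeR fit none of the differences passed the adjustment over all genes.

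Of the 19602 genes tested by edgeR's quasi-likelihood test, 0 (0%) passed both limits set for a call (adjusted p under 0.05, 2-fold change), and the smallest adjusted p of any gene was 0.166. All 10 Notch genes passed the filter on low counts, and their adjusted p values from edgeR ran from 0.262 to 0.984. At an unadjusted p under 0.05, 1360 genes (6.94%) and 3 of the 10 Notch genes passed. With a change of at least 2-fold as well, together the unadjusted limits, 2 of the 10 (Notch1 and Dll1) were higher in GB2 tumors against a background of 3.74% of all genes, and 0 of the 10 were lower against a background of 0.918%. All GB2 tumors lay above all PBS tumors in 5 of the 10 genes, against 8.61% of all genes, and all lay below in 0 of the 10, against 6.68%. Fitted levels were higher in GB2 tumors for 9 of the 10 genes, against 48.3% of all genes. The median log2 fold change was 0.38 over the 10 genes and -0.02 over all genes tested. Among tested genes of known transcript length, the fold change rose with length. Its median (log2) was -0.33 in the 2716 shortest genes and 0.16 in the 1330 genes over 7000 bases. Notch1, Notch2 and Notch3 are among the latter. The backgrounds over all genes were not matched for transcript length. By DESeq2, which called 1.8% of the 19581 genes given an adjusted p as higher in GB2 tumors, Dll1 was the single Notch gene called, with an adjusted p of 0.00323, while Notch1 had 0.0634 and Dll4 0.181.

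**Figure D1:**
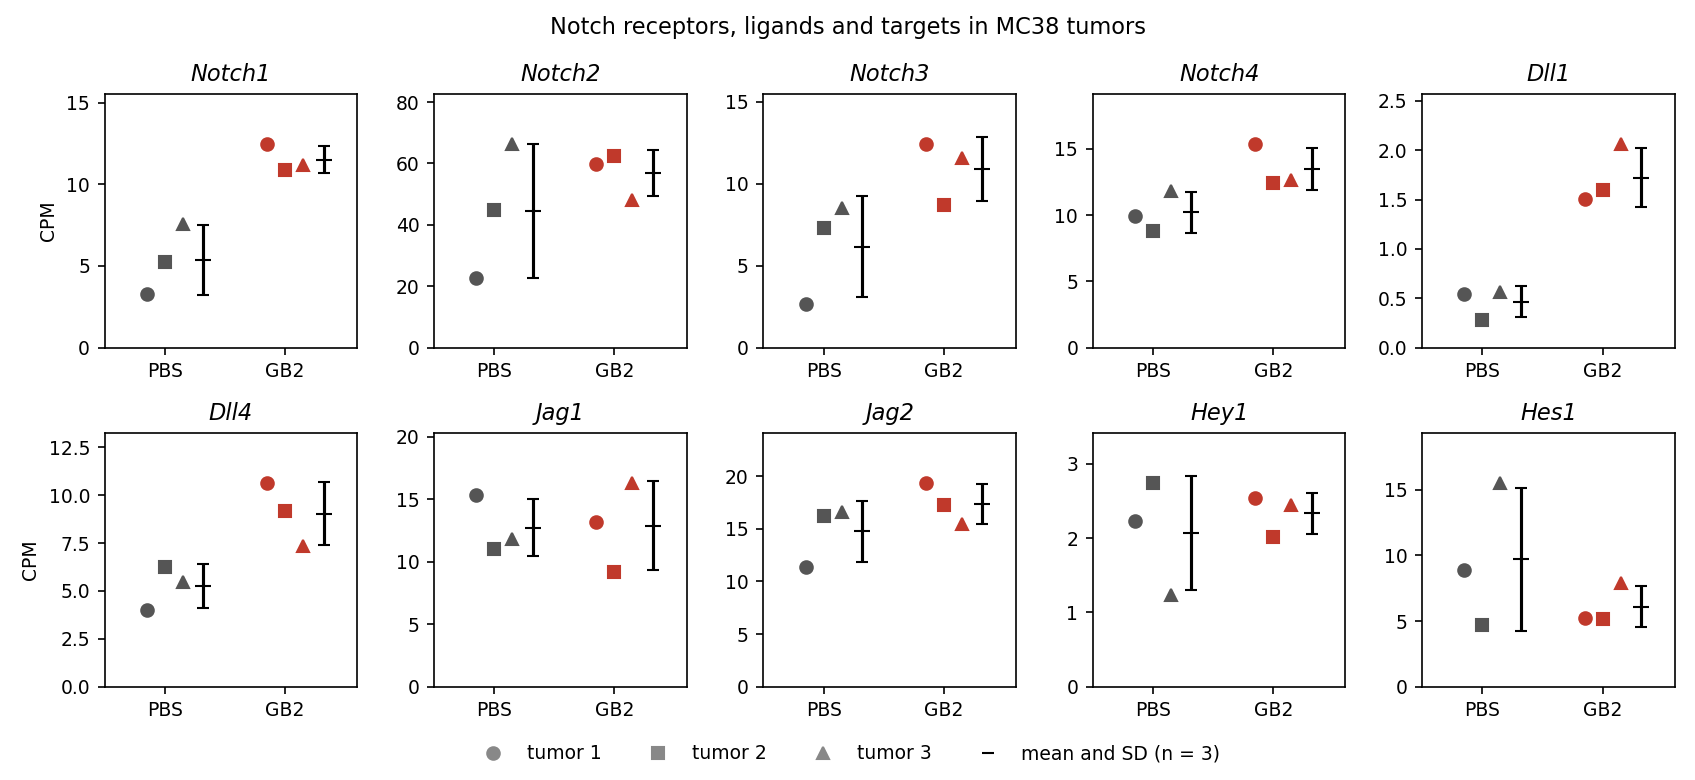
CPM (counts scaled for library size by TMM) of the 10 Notch genes in each of the 3 PBS and 3 GB2 tumors, with the mean and SD of each group as a cross and bar beside the points and a separate axis for each gene that starts at 0. The groups do not overlap for Notch1, Notch3, Notch4, Dll1 and Dll4, and PBS tumor 1 is the lowest tumor for Notch1, Notch2, Notch3, Dll4 and Jag2.

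The libraries held between 64764405 and 83690056 deposited counts, and every GB2 library was larger than every PBS library. Among low counts 4 is more frequent than 3 or 5, from which about 4 counts were taken as 1 read pair, an estimate that the sources used here do not state. The common dispersion of 0.164 corresponds to a coefficient of variation of 40.5% among tumors treated alike. PBS tumor 1 stood apart on the first principal component, which took 34.0% of the variance, and its levels fell with transcript length, from a median deviation of 0.49 (log2) in the 2716 genes of up to 1000 bases to -0.29 in the 1330 genes over 7000 bases. PBS tumor 2 went from 0.03 to -0.03. The other tumors ran the other way. PBS tumor 3 went from -0.05 to 0.08. GB2 tumors 1, 2 and 3 went from -0.13, -0.13 and -0.07 to 0.16, 0.12 and 0.04. Notch1, Notch2 and Notch3 have transcripts of 9488, 10500 and 8016 bases, so each receptor is also given without PBS tumor 1 or with the length trend removed. With the trend removed, Dll1 had a log2 fold change of 1.80, Dll4 0.70 and Jag1 -0.15. Jag2 had 0.10, Hey1 0.18 and Hes1 -0.57.

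Notch1, the receptor with the best known role in endothelial cells and T cell development, had the clearest difference among the receptors. PBS tumors 1, 2 and 3 held 3.31, 5.24 and 7.57 CPM of Notch1, and GB2 tumors 1, 2 and 3 held 12.4, 10.9 and 11.2 CPM. The lowest GB2 tumor was above the highest PBS tumor, and the GB2 tumors lay much closer together than the PBS tumors. The means were 5.37 ± 2.13 CPM in PBS and 11.5 ± 0.823 CPM in GB2 tumors (SD, n = 3 each). On the log2 scale the fold change was 1.10 ± 0.32 (SE) with a 95% confidence interval of 0.34 to 1.85 (edgeR p = 0.0105, adjusted p = 0.448, exact permutation p = 0.1). With 3 tumors against 3, an exact permutation p cannot go below 0.1. Without PBS tumor 1 the log2 fold change was 0.86 and with the length trend removed it was 0.96, both under 2-fold with an unadjusted edgeR p under 0.05.

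Notch1 (ENSMUSG00000026923) lies at chr2:26347915-26406675 on the minus strand in the positions of the deposited table, whose build is not that of the promoter sequences. Its promoter window is shown because Notch1 and the Delta-like ligands were higher together. In every window printed, which runs from 250 bases before to 50 bases after the annotated start in RefSeq on GRCm38.p6, 5′ to 3′ on the strand of the gene, capitals mark GGGCGG, the GC box that Sp1 family factors bind, and CACGNG, a sequence bound by Hes and Hey repressors, on either strand. The Notch1 window, chr2:26503773-26504072 on the minus strand, holds 5 GC boxes and no CACGNG.
Notch1 promoter: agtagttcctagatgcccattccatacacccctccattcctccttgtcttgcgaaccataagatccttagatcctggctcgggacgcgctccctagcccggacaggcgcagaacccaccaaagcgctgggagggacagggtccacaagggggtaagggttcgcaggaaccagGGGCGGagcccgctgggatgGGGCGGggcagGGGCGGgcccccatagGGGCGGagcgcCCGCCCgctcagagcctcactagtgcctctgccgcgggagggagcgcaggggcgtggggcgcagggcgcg

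Notch3, which is mainly known from pericytes and vascular smooth muscle, gave 2.69, 7.29 and 8.50 CPM in the PBS tumors and 12.4, 8.68 and 11.6 CPM in the GB2 tumors. The groups did not overlap, but GB2 tumor 2 was just above PBS tumor 3. Its log2 fold change was 0.82 ± 0.42 (SE), with a 95% confidence interval of -0.17 to 1.81 (edgeR p = 0.0905, adjusted p = 0.757, exact permutation p = 0.1). It was 0.48 without PBS tumor 1, where Notch3 was lowest, 0.70 with the length trend removed and 1.13 without PBS tumor 3, where the unadjusted p was 0.0452. Notch4, the receptor most restricted to endothelium, was at 9.93, 8.83 and 11.9 CPM in PBS and 15.3, 12.5 and 12.7 CPM in GB2 tumors. All GB2 tumors were above all PBS tumors, again by a narrow margin between PBS tumor 3 and GB2 tumor 2. The log2 fold change was 0.40 ± 0.22 (SE), with a 95% confidence interval of -0.11 to 0.92 (edgeR p = 0.107, adjusted p = 0.757, exact permutation p = 0.1), and it was 0.40 without PBS tumor 1 and 0.23 with the length trend removed.

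Notch2, a receptor used by many cell types including myeloid cells and marginal zone B cells, was the most abundant of the 4. It gave 22.7, 45.0 and 66.2 CPM in the PBS tumors and 59.7, 62.4 and 48.3 CPM in the GB2 tumors. PBS tumor 3 held the highest level of all, so the groups overlapped. Its log2 fold change was 0.35 ± 0.36 (SE), with a 95% confidence interval of -0.49 to 1.18 (edgeR p = 0.361, adjusted p = 0.835, exact permutation p = 0.6). Without PBS tumor 1 it was 0.05, without PBS tumor 3 it was 0.75 and with the length trend removed it was 0.22.

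Dll1, a Delta-like ligand known from somite formation and from the niche of marginal zone B cells and Notch2-dependent myeloid cells, had the largest change and the lowest level of the 10 genes. The deposited counts of Dll1 in PBS tumors 1, 2 and 3 were 32, 20 and 40, and those in GB2 tumors 1, 2 and 3 were 126, 133 and 175, which is an estimated 8, 5 and 10 read pairs against 31.5, 33.25 and 43.75. In CPM these were 0.541, 0.284 and 0.566 in PBS and 1.50, 1.6 and 2.06 in GB2 tumors. The lowest GB2 tumor was over 2-fold above the highest PBS tumor. By the edgeR fit the log2 fold change was 1.89 ± 0.41 (SE) with a 95% confidence interval of 0.92 to 2.85 (edgeR p = 0.00217, adjusted p = 0.262, exact permutation p = 0.1), a fold of 3.70 with an interval of 1.9 to 7.23. It kept an unadjusted p under 0.05 and a change of over 2-fold in each edgeR fit that left out 1 tumor, where the log2 fold change ran from 1.64 to 2.07.

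Dll4, the ligand of endothelial tip cells and arteries, was at 4.01, 6.26 and 5.49 CPM in the PBS tumors and at 10.6, 9.19 and 7.33 CPM in the GB2 tumors. All GB2 tumors were above all PBS tumors. The means were 5.25 ± 1.14 and 9.05 ± 1.65 CPM (SD, n = 3 each), and the log2 fold change was 0.78 ± 0.27 (SE), with a 95% confidence interval of 0.14 to 1.42 (edgeR p = 0.0228, adjusted p = 0.602, exact permutation p = 0.1). The unadjusted p was 0.0841 without GB2 tumor 1 and 0.0618 without GB2 tumor 2. With the tumor number as a replicate block it was 0.0579.

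The Jagged ligands did not separate the groups. Jag1, which is made by endothelium, smooth muscle and many epithelia, was at 15.3, 11.0 and 11.8 CPM in the PBS tumors and 13.2, 9.20 and 16.3 CPM in the GB2 tumors. The highest and the lowest of the 6 values were both GB2 tumors. The log2 fold change was 0.02 with a 95% confidence interval of -0.62 to 0.66 (edgeR p = 0.940, adjusted p = 0.984, exact permutation p = 1), so a difference of up to about 1.58-fold in Jag1 is within the interval, and the sign changed when PBS tumor 2, PBS tumor 3 or GB2 tumor 3 was left out. Jag2, a ligand of epithelial and immune cells, was at 11.4, 16.2 and 16.6 CPM in PBS and 19.3, 17.3 and 15.4 CPM in GB2 tumors. GB2 tumor 3 lay below PBS tumors 2 and 3. Its log2 fold change was 0.23 with a 95% confidence interval of -0.29 to 0.76 (edgeR p = 0.330, adjusted p = 0.822, exact permutation p = 0.4), and 0.09 without PBS tumor 1.

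In the deposited table Dll1 (ENSMUSG00000014773) lies at chr17:15587616-15597134 on the minus strand, Dll4 (ENSMUSG00000027314) at chr2:119156265-119166443 on the plus strand and Jag1 (ENSMUSG00000027276) at chr2:136923376-136958564 on the minus strand. The promoters of the ligands with the largest and the smallest difference are shown with that of Dll4, so that their letters can be compared. Dll1 has 2 annotated starts, at chr17:15375774-15376073 and chr17:15376883-15377182 on the minus strand, and neither window holds a GC box. The Dll4 window is chr2:119325534-119325833 on the plus strand, with 2 GC boxes and 1 CACGNG, and the Jag1 window is chr2:137116471-137116770 on the minus strand, with no GC box and 2 CACGNG.
Dll1 promoter, window 1: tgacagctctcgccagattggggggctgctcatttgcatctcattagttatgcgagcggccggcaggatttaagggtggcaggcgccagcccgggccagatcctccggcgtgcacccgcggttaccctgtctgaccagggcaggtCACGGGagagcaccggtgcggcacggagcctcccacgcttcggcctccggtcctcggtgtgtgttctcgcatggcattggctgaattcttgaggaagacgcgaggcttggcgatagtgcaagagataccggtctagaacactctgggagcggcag
Dll1 promoter, window 2: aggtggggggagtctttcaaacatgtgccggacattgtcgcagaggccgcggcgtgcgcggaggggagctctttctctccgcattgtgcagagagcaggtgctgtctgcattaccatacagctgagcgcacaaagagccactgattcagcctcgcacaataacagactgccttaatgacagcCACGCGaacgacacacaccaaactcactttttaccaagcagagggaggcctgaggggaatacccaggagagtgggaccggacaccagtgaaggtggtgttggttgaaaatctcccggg
Dll4 promoter: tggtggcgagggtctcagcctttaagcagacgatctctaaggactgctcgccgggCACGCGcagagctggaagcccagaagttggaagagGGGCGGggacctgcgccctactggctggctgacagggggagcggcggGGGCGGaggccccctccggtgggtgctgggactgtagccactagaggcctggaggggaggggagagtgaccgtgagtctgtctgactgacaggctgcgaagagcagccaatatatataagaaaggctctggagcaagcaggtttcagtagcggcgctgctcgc
Jag1 promoter: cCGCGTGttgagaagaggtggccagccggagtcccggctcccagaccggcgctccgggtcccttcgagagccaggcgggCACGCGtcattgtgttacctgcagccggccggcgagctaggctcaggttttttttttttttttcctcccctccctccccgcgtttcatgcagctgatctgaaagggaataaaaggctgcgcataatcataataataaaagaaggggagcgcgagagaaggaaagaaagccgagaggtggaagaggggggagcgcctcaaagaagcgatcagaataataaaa

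The table of promoters held 9 windows for 8 of the 10 genes, the receptors and ligands, and none for the targets Hes1 and Hey1. CACGNG occurred in 7 of the 9 windows, against 27.5% of all 32851 windows of 300 bases, and GGGCGG in 5 of 9, against 35.7%. The 9 windows held between 55.7% and 86.0% G or C, against a median of 52.7% over all windows. The RBPJ core TGGGAA, searched on both strands, was in 0 of 9 windows, against 25.6% of all, and its longer form GTGGGAA, which contains the core, was in 0 of 9, against 6.38%. TATAAA was in 0 of 9, against 13.6%. CACGNG was absent from the Notch1 and Notch4 windows only, and GGGCGG from those of Notch4, Dll1 and Jag1. These letters describe the windows only.

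Neither target gene separated the groups. Hes1, a repressor of differentiation genes that many cell types express, was at 8.91, 4.67 and 15.5 CPM in the PBS tumors and 5.23, 5.17 and 7.92 CPM in the GB2 tumors. The PBS tumors held both the lowest and the highest of the 6 values. The fitted log2 fold change of Hes1 was -0.67 ± 0.44 (SE), with a 95% confidence interval of -1.69 to 0.36 (edgeR p = 0.170, adjusted p = 0.774, exact permutation p = 0.4), and its size rested on single PBS tumors, since it was -0.15 without PBS tumor 3 and -0.997 without PBS tumor 2, where the unadjusted p was 0.0321. Hey1, a repressor with a known role in arterial endothelium, was at 2.23, 2.74 and 1.23 CPM in PBS and 2.54, 2.02 and 2.45 CPM in GB2 tumors. The GB2 values lay within the range of the PBS values. Its log2 fold change was 0.18 with a 95% confidence interval of -0.69 to 1.04 (edgeR p = 0.649, adjusted p = 0.912, exact permutation p = 0.7), and -0.09 without PBS tumor 3.

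**Figure D2:**
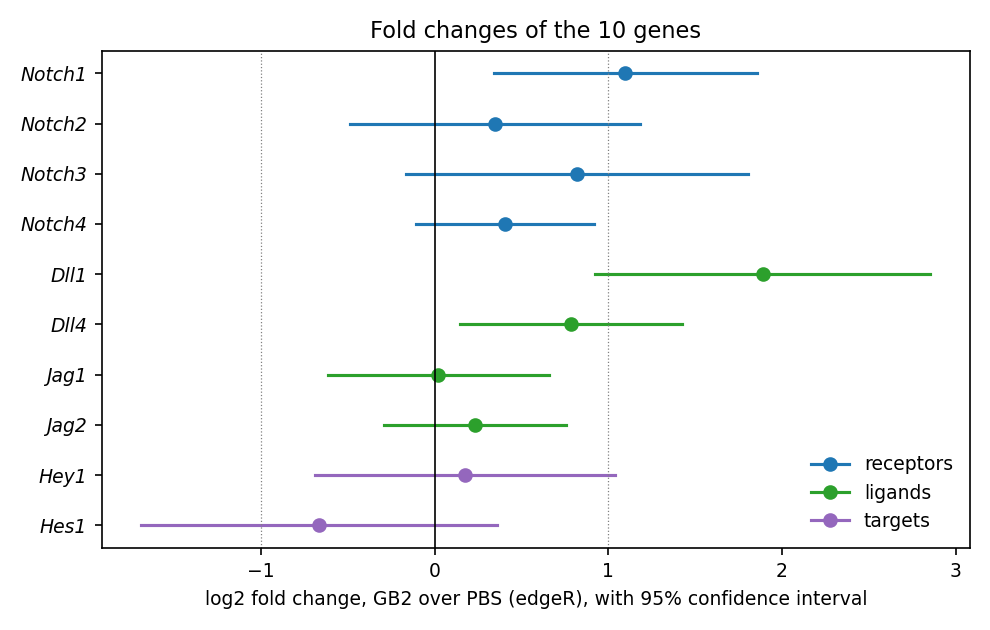
Log2 fold change of each of the 10 Notch genes, GB2 over PBS tumors, from the edgeR fit to 3 tumors per group, with the 95% confidence interval as a line and colors for receptors, ligands and targets. The intervals of Notch1, Dll1 and Dll4 lie above 0, and those of the other 7 genes cross it.

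Levels per transcript length, as FPKM, allow the genes to be ordered within a group. In PBS tumors the mean FPKM were 4.44 for Hes1, 3.93 for Notch2, 2.01 for Jag1, 1.98 for Jag2, 1.28 for Dll4, 1.17 for Notch4, 0.723 for Notch3, 0.583 for Hey1, 0.355 for Notch1 and 0.0995 for Dll1. Neighbors in this order overlapped over the 3 tumors except Notch4 with Notch3 and Notch1 with Dll1. In GB2 tumors the order was Notch2 at 5.16 FPKM, Hes1 at 2.94, Jag2 at 2.44, Dll4 at 2.30, Jag1 at 2.17, Notch4 at 1.64, Notch3 at 1.32, Notch1 at 0.790, Hey1 at 0.697 and Dll1 at 0.395. Here the neighbors that did not overlap were Notch2 with Hes1, Notch3 with Notch1 and Hey1 with Dll1. Dll4 was thus level with the Jagged ligands in GB2 tumors. In PBS tumors every Dll4 value was below every Jag1 value, while Dll4 and Jag2 already overlapped.

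Notch1 took a larger share of the receptor pool in every GB2 tumor. The summed FPKM of the 4 receptors was 3.33, 6.28 and 8.94 FPKM in PBS tumors against 9.78, 8.74 and 8.19 FPKM in GB2 tumors, and the groups overlapped (ratio of means 1.44, exact permutation p = 0.3). Notch2 made up 61.6% ± 6.68 of it in PBS and 57.9% ± 4.69 in GB2 tumors (SD, n = 3 each, exact permutation p = 0.5). Notch1 made up 5.98%, 5.59% and 5.75% of the pool in PBS tumors against 8.84%, 8.32% and 9.47% in GB2 tumors, a difference of 3.11 percentage points that was larger than the spread in either group (exact permutation p = 0.1). In this ratio PBS tumor 1 did not stand apart for Notch1. The share of Notch3 was 11.2% ± 2.66 and 14.9% ± 2.88, and that of Notch4 was 21.4% ± 8.73 and 18.4% ± 1.36 (SD, n = 3 each, exact permutation p = 0.2 and 1), and both overlapped. For Notch4 the PBS mean rests on PBS tumor 1, with 31.4% against 16.7% and 15.9% in the other PBS tumors, and the difference turned from -3.002 to 2.03 percentage points without it. That of Notch3, 3.64, fell to 2.26 when PBS tumor 1 was left out and to 2.41 when GB2 tumor 3 was. That of Notch2, -3.74, ran from -7.50 without PBS tumor 1 to -1.12 without PBS tumor 3.

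The ligand pool was larger in every GB2 tumor. Its summed FPKM was 4.64, 5.67 and 5.79 FPKM in PBS tumors against 8.08, 6.50 and 7.32 FPKM in GB2 tumors (ratio of means 1.36, exact permutation p = 0.1). Dll1 made up 2.35%, 1.11% and 2.18% of it in PBS tumors against 4.29%, 5.49% and 6.55% in GB2 tumors, with no overlap. The share of Dll4 was 23.5% ± 4.23 in PBS and 31.5% ± 5.04 in GB2 tumors, that of Jag1 38.1% ± 8.99 and 29.6% ± 7.47 and that of Jag2 36.5% ± 5.55 and 33.4% ± 3.27 (SD, n = 3 each). These last 3 shares overlapped between the groups, with exact permutation p values of 0.2, 0.3 and 0.5. PBS tumor 1 held 48.4% Jag1 against 31.95% and 34.0% in the other PBS tumors, and without it the Jag1 difference moved from -8.55 to -3.40 percentage points and that of Jag2 from -3.02 to -6.22. When other tumors were left out, the smallest Jag2 difference was -1.27.

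**Figure D3:**
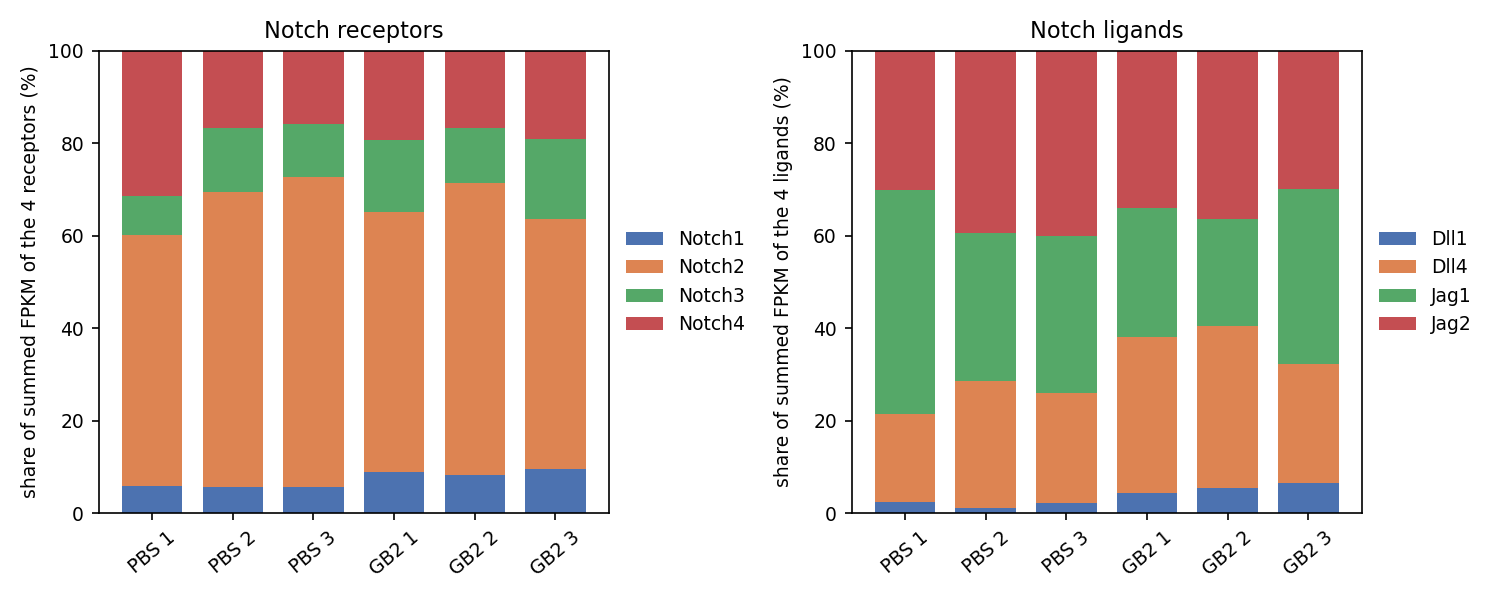
Share of each receptor in the summed FPKM of the 4 Notch receptors (left) and of each ligand in that of Dll1, Dll4, Jag1 and Jag2 (right), in percent, with a bar for each tumor. Notch1 takes 5.59% to 5.98% of the receptor pool in the PBS tumors and 8.32% to 9.47% in the GB2 tumors, and Dll1 takes 1.11% to 2.35% and 4.29% to 6.55% of the ligand pool.

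Several of these genes are made by blood vessels, and vessel genes differed between the groups too. Of 14 endothelial marker genes, all GB2 tumors were above all PBS tumors in 13, and 6 were past the unadjusted limits in the edgeR fit (Pecam1, Cdh5, Kdr, Tek, Cldn5 and Robo4). The median log2 fold change of the list was 0.90, and its summed level was 134 to 145 CPM in PBS and 232 to 258 CPM in GB2 tumors. The exception was Vwf, at -0.48 with overlapping groups. Pecam1, the adhesion molecule CD31, was at 13.4, 15.1 and 15.6 CPM in PBS and 38.1, 34.3 and 39.2 CPM in GB2 tumors. Of 10 arterial and tip cell markers 9 were tested and 6 did not overlap, with Sox17 past the unadjusted limits. Esm1, a tip cell marker, had a log2 fold change of -0.76, with means of 25.3 CPM in PBS and 14.9 CPM in GB2 tumors and overlapping groups. The part of these marker differences in the Notch results was not tested.

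Set against the mean of the 14 endothelial markers in the same tumor, the Notch genes differed in direction. That mean was itself 2.78, 2.83 and 2.73 log2 CPM in PBS tumors and 3.70, 3.61 and 3.82 in GB2 tumors. A gene with no change therefore falls on this scale. Dll1 was higher relative to these endothelial markers in every GB2 tumor, by a mean difference of 0.95 (log2), or 0.62 without PBS tumor 2. For Notch1 the difference was 0.24, for Notch3 0.04 and for Dll4 -0.14, all with overlapping groups. Leaving out 1 tumor turned each of these signs, to -0.06 for Notch1 and -0.48 for Notch3 without PBS tumor 1 and to 0.06 for Dll4 without GB2 tumor 3. The other members were lower relative to the markers in GB2 tumors. The differences were -0.52 for Notch4, -0.68 for Jag2, -0.93 for Jag1 and -1.46 for Hes1 without overlap. They were -0.46 for Notch2 and -0.69 for Hey1 with overlap. Jag1 itself had a log2 fold change of 0.02 and Notch4 of 0.40, so a lower value here does not mean less transcript of the gene. The share of all genes lower on this scale was not computed. No Notch gene was set against the fibroblast or macrophage markers in this way. The Notch2 value was -0.88 without PBS tumor 1 and -0.08 without PBS tumor 3. Relative to the arterial and tip cell list, Dll1 was 1.13 higher without overlap, Notch1 was 0.42 higher with PBS tumor 3 close below the GB2 tumors and 0.19 higher without PBS tumor 1, and Dll4 differed by 0.04 with overlap, or by -0.07 without PBS tumor 1 and 0.21 without PBS tumor 2. Notch4 at -0.34, Jag2 at -0.50, Jag1 at -0.75 and Hes1 at -1.28 were lower relative to this list in every GB2 tumor, and Notch2, Notch3 and Hey1 overlapped. The mean log2 CPM of the arterial and tip cell list was itself higher in every GB2 tumor than in every PBS tumor. A gene with no change, such as Jag1, therefore falls relative to this list too. The share of all genes lower relative to it was not computed.

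**Figure D4:**
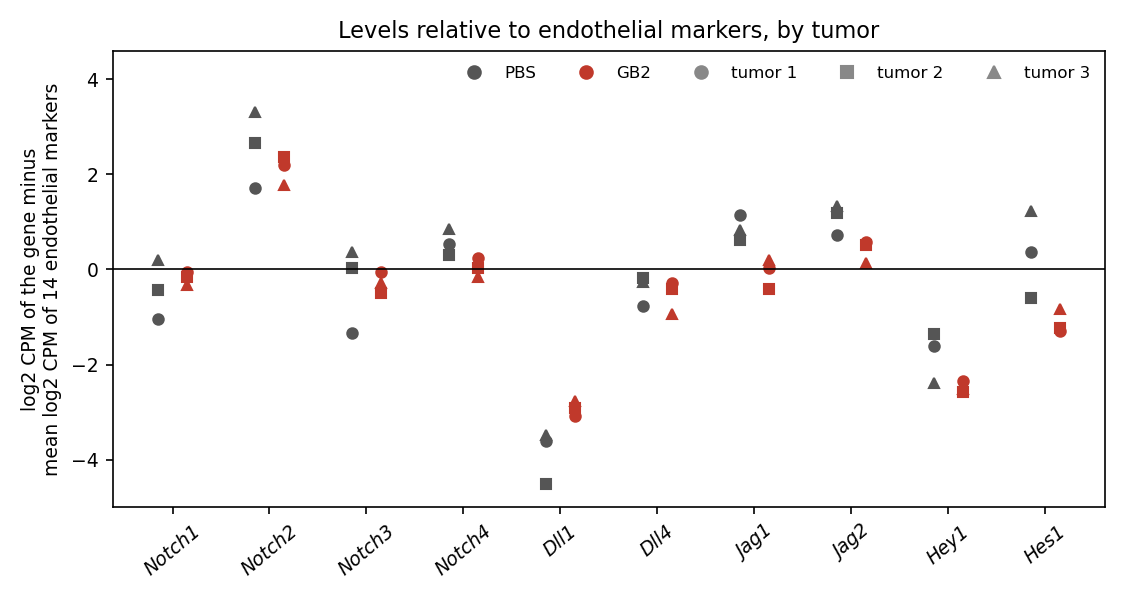
Log2 CPM of each Notch gene minus the mean log2 CPM of 14 endothelial marker genes in the same tumor, for 3 PBS and 3 GB2 tumors. Dll1 is higher in all GB2 tumors on this scale, while Notch4, Jag1, Jag2 and Hes1 are lower in all of them. The marker mean is itself higher in every GB2 tumor, so a gene with no change lies lower here.

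Markers of pericytes overlapped in most cases, while those of fibroblasts and macrophages were higher in every GB2 tumor. Of 11 pericyte and smooth muscle markers, 4 did not overlap between the groups and 2 (Pdgfrb and Des) were past the unadjusted limits, with a median log2 fold change of 0.40 and overlapping summed levels of 205 to 412 CPM in PBS and 352 to 388 CPM in GB2 tumors. Relative to this list Notch1 was 0.59 and Dll1 1.29 higher in GB2 tumors without overlap. For Notch1, PBS tumor 3 (-0.133) was just below GB2 tumor 3 (-0.127). Jag2 differed by -0.34 without overlap, and the other 7 genes overlapped. The mean log2 CPM of this list was itself 2.73, 3.16 and 3.06 in PBS tumors and 3.68, 3.40 and 3.61 in GB2 tumors. All 9 fibroblast markers, Col1a1 among them, were past the unadjusted limits, with summed levels of 299.9 to 543 CPM in PBS and 1035 to 1485 CPM in GB2 tumors. Of 10 macrophage markers, all were above without overlap and 9, Adgre1 among them, were past the unadjusted limits, with summed levels of 65.2 to 92.3 CPM and 254 to 354 CPM. The median log2 fold change was 1.55 for the fibroblast list and 1.94 for the macrophage list, against 1.89 for Dll1. Dll1 was therefore higher relative to the vessel lists, and whether it was higher relative to these 2 lists was not tested.

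T cell, epithelial and host tissue markers were read in the same way. Of 9 tested T cell markers 0 were past the unadjusted limits, with sums of 1.53 to 8.77 CPM in PBS and 2.80 to 8.15 CPM in GB2 tumors, and Cd3e was at 0 in PBS tumor 3. Tumor epithelium markers summed to 6.80 to 8.18 CPM in PBS and 8.56 to 13.8 CPM in GB2 tumors, with Epcam past the unadjusted limits among 6 tested, so the epithelial markers of these carcinoma grafts were low in both groups. Keratinocyte markers summed to 26.5 to 92.3 CPM and 72.7 to 128 CPM, with Trp63 past the unadjusted limits among 8 tested. Skeletal muscle markers were 99.4 to 172 CPM in PBS and 206 to 239 CPM in GB2 tumors, and 5 of 8, Ckm among them, did not overlap. Adipocyte markers were 16.3 to 67.3 CPM and 60.4 to 82.7 CPM, with 1 of 6 that did not overlap. The part of these lists in the levels of the Notch genes was not tested.

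Among 53 other genes of the pathway, 51 were tested, 32 had higher and 19 lower fitted levels in GB2 tumors, and their median log2 fold change was 0.20. All GB2 tumors were above all PBS tumors in 7 (13.7%), against the background of 8.61%, and below in 2 (3.92%), against 6.68%. Past the unadjusted limits, 3 of 51 were higher (Lfng, Heyl and Dtx4) and 0 were lower, against 3.74% and 0.918% of all genes. The smallest adjusted p in the edgeR fit was 0.267. Hes2 and Hes5 were not tested because their counts were too low. Dll3, a ligand-like inhibitor, had the largest fitted difference, but the groups overlapped. Its counts were 3, 16 and 25 in PBS tumors against 0, 201 and 47 in GB2 tumors. GB2 tumor 2 was far above the rest, GB2 tumor 3 was also above every PBS tumor, and GB2 tumor 1 held none.

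Lfng, the Fringe glycosyltransferase whose sugars favor activation of Notch1 by Delta-like ligands over Jagged ligands, was at 0.845, 0.908 and 0.467 CPM in the PBS tumors and 2.42, 2.04 and 3.09 CPM in the GB2 tumors. Every GB2 tumor was over 2-fold above every PBS tumor. Its counts were low, at 50, 64 and 33 in PBS tumors and 203, 170 and 263 in GB2 tumors. The log2 fold change was 1.77 ± 0.39 (SE, edgeR, adjusted p = 0.267). Of the other Fringe genes, Mfng had a log2 fold change of 0.34 with overlapping groups, and Rfng had -0.30, with all GB2 tumors below all PBS tumors. Neurl1a, a ubiquitin ligase that acts in ligand uptake, was 0.997 higher on the log2 scale without overlap (edgeR, adjusted p = 0.621), just under 2-fold. Its counts in the PBS tumors were 36, 39 and 57.

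Heyl, a Notch target known from vascular smooth muscle and downstream of Notch3, was at 0.372, 1.22 and 1.36 CPM in the PBS tumors and 3.63, 1.96 and 3.96 CPM in the GB2 tumors. The groups did not overlap, and PBS tumor 1 was lowest, with 22 counts against 86 and 96 in PBS tumors 2 and 3. A value without PBS tumor 1 is not given for Heyl. Its log2 fold change was 1.69 ± 0.54 (SE, edgeR, adjusted p = 0.515). The other Hes and Hey genes tested ran from -1.41 for Hes7 to 0.07 for Hes3, with Hey2, an arterial repressor, at -0.84 (edgeR, adjusted p = 0.752), and in none of these did the groups separate. Dtx4, a Deltex ubiquitin ligase that modulates Notch, was at 0.609, 1.21 and 0.538 CPM in PBS and 1.30, 1.88 and 2.24 CPM in GB2 tumors, with a log2 fold change of 1.20 (edgeR, adjusted p = 0.643). The Dtx4 counts in the PBS tumors were 36, 85 and 38. Dtx3, of the same family, was lower in every GB2 tumor, with a log2 fold change of -0.49 (edgeR, adjusted p = 0.584).

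The core components named here had fitted differences under 2-fold. The DNA-binding partner Rbpj had a log2 fold change of 0.20 (edgeR, adjusted p = 0.856), and the feedback inhibitor Nrarp, itself a Notch target, had 0.38 (edgeR, adjusted p = 0.806), both with overlapping groups. The coactivator Maml2 at 0.49, the corepressor Hdac1 at 0.20 and the Delta-like protein Dlk1 at 0.70 did not overlap and did not pass an unadjusted p of 0.05. None of the 9 protease genes that cut the receptor or its precursor separated the groups, and their log2 fold changes ran from -0.57 for Psenen, a gamma-secretase subunit, to 0.53 for Adam10.

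**Figure D5:**
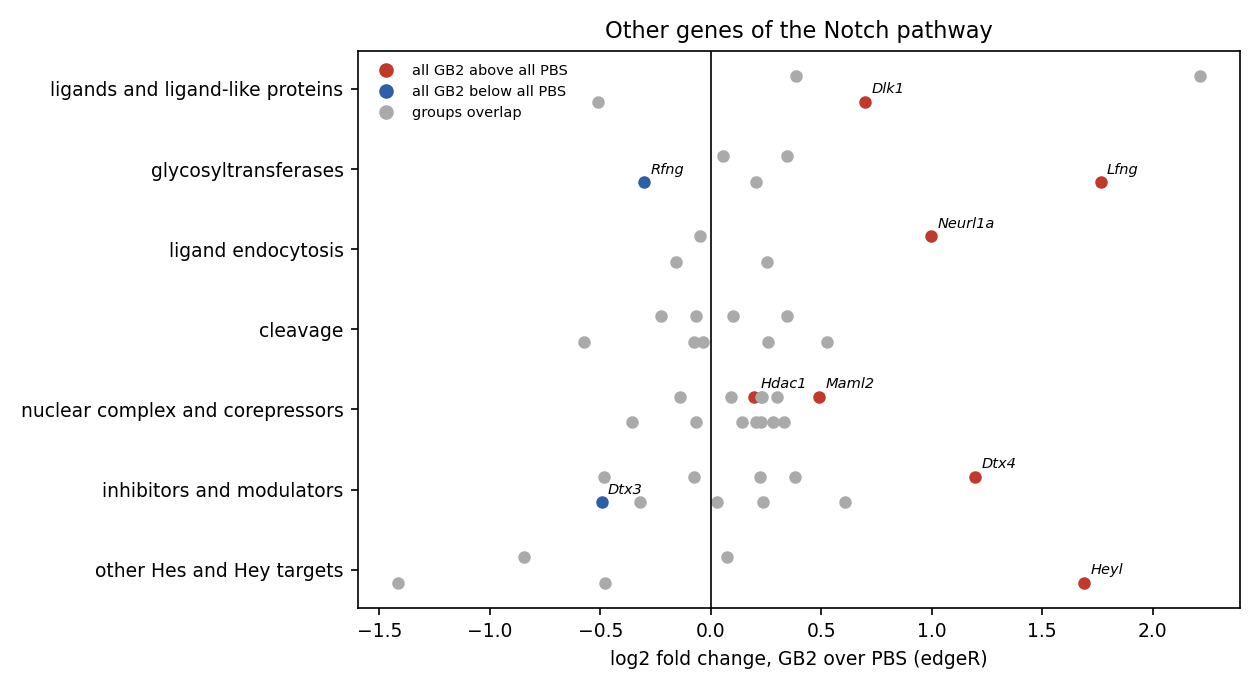
Log2 fold change (GB2 over PBS tumors, edgeR) of the 51 tested genes of the wider Notch pathway, grouped by role, with a point for each gene and color for those whose 3 GB2 tumors lie all above or all below the 3 PBS tumors. Dll3, the rightmost point, has overlapping groups, Lfng, Heyl and Dtx4 lie to the right of 1, and Rfng and Dtx3 are the genes lower in every GB2 tumor.

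Other annotated genes overlap 6 of the 10 Notch genes in the table. On the opposite strand of Notch1, 0610009E02Rik had 29, 14 and 28 counts in PBS tumors against 65, 30 and 38 counts in GB2 tumors, far under the 196 to 1045 counts of Notch1. Opposite Dll4, Gm14207 had 10 to 16 counts in PBS and 15 to 39 in GB2 tumors. The libraries were made with a strand-marking protocol, but whether the counting used the strand is not given in the sources used here. No overlapping gene was listed for Dll1, Jag1, Hey1 or Hes1.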

How the data were processed

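Poly-A selected, strand-marked, paired-end libraries were sequenced from 3 PBS and 3 GB2 tumors, grouped by the treatment in the labels. The authors deposited 1 table with estimated counts and FPKM for every gene and tumor. The estimated counts deposited by the authors are whole numbers whose totals differ between tumors, in which 4 occurs more often than 3 or 5 (7017 against 2984 and 2017 values), from which about 4 counts were taken as 1 read pair. The FPKM deposited by the authors are scaled by transcript length and library total. The submitters' processing notes name cutadapt 1.9, HISAT2 2.2.1, StringTie 2.1.6, DESeq2, edgeR and mm10. Of 31999 shared gene IDs, 641 (2.00%) have the same start and end in GRCm38, and none of the 10 genes does, so positions are printed as in the table.

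The count test was run with edgeR 4.0.16 in R 4.3.3 (filterByExpr with a minimum count of 10, TMM, glmQLFit, glmQLFTest, Benjamini-Hochberg adjustment over 19602 genes). CPM are scaled by TMM, with a prior count of 2 on the log2 scale. Standard errors come from the edgeR test statistic. Single values were compared by exact two-sided permutation tests, whose smallest p is 0.1. Calls were made at 2-fold and an adjusted p under 0.05. Alternatives were DESeq2 1.42.0, limma 3.58.1 on log2(FPKM + 1) and log2(FPKM + 0.1) of genes with an FPKM of at least 0.1 in 3 tumors, other size factors (RLE), no filter, counts divided by 4, the tumor number as a replicate block, leaving out each tumor, and a per-tumor trend on transcript length removed, the last chosen after the data were seen. The computations were tested on simulated counts.

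Named genes were the 10 Notch genes, other pathway genes past an unadjusted p under 0.05 and 2-fold or with groups that did not overlap, and defining markers. A few others (Dll3, Mfng, Nrarp, Rbpj, Hey2, Hes3, Hes7, Psenen, Adam10, Esm1 and Vwf) were named after their values were seen, and the GC box, TATA and CACGNG searches were added later than the RBPJ search. The members and lists were chosen with earlier results of these data known. Promoters are from RefSeq. The labels give no sequencing batch.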

Additional observations from a re-analysis of the deposited data

How the results depend on the processing

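The signs of the log2 fold changes of Notch1, Notch2, Notch3, Notch4, Dll1, Dll4, Jag2 and Hes1 held under all alternatives run, and the sign of the Notch4 share of receptors turned without PBS tumor 1 (2.03). Jag1 changed sign with the replicate block (-0.0036), with the length trend removed (-0.15) and in leave-one-out fits (-0.18 to 0.22), and Hey1 without PBS tumor 3 (-0.086, with leave-one-out values up to 0.44). The cause was not tested. Dll1 was called by DESeq2 (log2 fold change 1.89), and its adjusted p ran from 0.00323 to 0.857 over all alternatives. For Notch1 the adjusted p ran from 0.0634 to 0.935. The share of Notch1 among receptors differed by 4.28 percentage points on CPM, against 3.11 on FPKM. Of the 10 genes, 2 were past an unadjusted p under 0.05 and 2-fold, 0 by limma on log2(FPKM + 1), a scale that understates changes of low genes (against 0.499% of all genes higher), 1 with the length trend removed (against 3.63% of all genes higher), and 1 to 3 when a tumor was left out (2.49% to 4.63% of all genes). Without PBS tumor 1 the single gene was Dll1.

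Over all genes, DESeq2 called 385 against 0 by edgeR, where 1360 had an unadjusted p under 0.05. Genes past the unadjusted limits were 733 higher and 180 lower. By limma on log2(FPKM + 1) they were 95 and 36, and without a filter 338 were lower. Leaving out 1 tumor gave 123 to 548 lower genes (310 without PBS tumor 2 and 548 without PBS tumor 3). Fewer tumors make separation easier, and the genes with all GB2 tumors above rose from 1687 to between 2351 and 3245, and those below from 1309 to between 1959 and 3027.

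Tumors with the same number are not stated to be pairs, and their deviations correlated at 0.03, 0.15 and -0.24 across genes. With the number as a replicate block, 0 genes were called, 636 were higher and 128 lower past the unadjusted limits, and 2 of the 10 Notch genes remained past them. Of the 10 Notch genes, depth limits Dll1 most, with an estimated 5 to 10 read pairs in a PBS tumor.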
